A study of Mus musculus with 18 samples.

Results

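Acyl-CoA thioesterases of the mouse liver were followed in 18 livers, as 10 member genes (Acot1, Acot2, Acot3, Acot4, Acot5, Acot7, Acot8, Acot9, Acot12 and Acot13) among the 25266 genes listed by symbol. The members were taken by symbol, and the family was selected on the RPKM of Acot3 in LKO against FF mice on CD, which was already known, so member values in that comparison are given as a description, with no p, and nothing is read from them. Of the 13 genes whose symbol is Acot with a number, Acot6, Acot10 and Acot11 were outside the member list and are described beside it. All mice were male C57BL/6 animals that received their diet for 16 weeks from 8 weeks of age. FF mice carried floxed alleles of Ppp6r3 (ppp6r3 fl/fl), the gene of SAPS3, a regulatory subunit of protein phosphatase 6. LKO mice carried the same floxed alleles and an Alb-Cre transgene, in which the albumin promoter drives Cre recombinase, chiefly in hepatocytes. Ppp6r3 was measured in whole liver and not by cell type. There were 4 FF and 4 LKO mice on CD, a control diet with 10 kcal% fat, and 5 FF and 5 LKO mice on HFD, with 32.5 kcal% fat. The study asked how loss of SAPS3 in the liver changes the response to HFD.

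Acyl-CoA thioesterases split an activated fatty acid, an acyl-CoA, into the free fatty acid and coenzyme A. They thereby set how much activated fatty acid and how much free coenzyme A each compartment of the hepatocyte holds, opposite to the acyl-CoA synthetases. The type I enzymes (Acot1 to Acot6) are near relatives encoded side by side, and several of them are textbook targets of PPARA, the nuclear receptor that fatty acids activate in the fasted or fat-fed liver. The type II enzymes (Acot7 to Acot13) catalyse the same kind of reaction but do not share the fold of the type I enzymes. They are encoded on several chromosomes.

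The authors deposited RPKM, the reads of a gene divided by its length and by the library's total, which allows levels of different genes to be compared. Depth, recovered from the steps between low values, was 23408029 to 36953571 reads per mouse. The RPKM of Ppp6r3 was 8.38 to 10.98 in FF mice and 3.88 to 4.08 in LKO mice on CD, and 7.55 to 8.82 in FF mice and 4.22 to 4.87 in LKO mice on HFD, and the genotypes did not overlap on either diet. The summed RPKM of 6 hepatocyte markers (Alb, Apoa1, Ttr, Hnf4a, Cps1 and Tat) was 29942 to 47784 over all mice, in a tissue labelled liver. Of these, Apoa1 and Cps1 were called lower by HFD in FF mice and Apoa1 was called higher in LKO than in FF mice on HFD. Markers of other cells were present at far lower levels, and some of them moved with HFD as well. The sum of 6 sinusoidal endothelial markers was 13.7 to 28.6 in FF CD and 35.8 to 57.7 in FF HFD mice, with 4 of 6 called higher, and that of 6 stellate cell and fibroblast markers was 59.2 to 85.9 and 75.1 to 120.4, with the 3 collagens Col1a1, Col1a2 and Col3a1 called higher. Of 7 Kupffer cell markers, Adgre1, Csf1r and Vsig4 were called higher by HFD in FF mice and Clec4f in LKO mice. The 3 collagens were also called lower in LKO than in FF mice on HFD. Whether these cells take part in the results below was not tested, and in bulk tissue fewer cells of a type and less RNA per cell cannot be told apart.

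Acot1 to Acot6 lay together on the plus strand of chromosome 12, within 123 kb (chr12:83987861-84111349, GENCODE annotation of GRCm38). Acot7 lay at chr4:152178134-152271855 and Acot9 at chrX:155262443-155297654 on the plus strand, and Acot8 at chr2:164792765-164804882 on the minus strand. Chromosome 13 held Acot12 (chr13:91741512-91786148, plus strand) and Acot13 (chr13:24817948-24831540, minus strand), far apart from each other. The coding sequences of Acot1 and Acot2 were 95.3% identical, those of Acot3 and Acot5 85.8%, and those of Acot4 and the other 5 genes 74.6% to 76.5%. Of all stretches of 50 coding bases, 59.1% in Acot1, 45.3% in Acot2, 20.9% in Acot3 and 20.6% in Acot4 occurred without a mismatch in another gene of the family. The same was true of 24.9% in Acot9, all shared with Acot10, and of none in Acot7, Acot8, Acot12 or Acot13. A stretch of 60 bases in the last exon illustrates where reads of Acot1 and Acot2 can be confused. It was picked to be identical in Acot1 and Acot2 and, among such stretches, to differ most in Acot4. Its differences therefore do not measure how alike the genes are. It is printed 5′ to 3′ from the plus strand, with bases that differ from Acot1 in capitals, 0 in Acot2, 19 in Acot3 and 29 in Acot4.
Acot1 (chr12:84017217-84017276): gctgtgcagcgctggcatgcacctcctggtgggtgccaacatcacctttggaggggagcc
Acot2 (chr12:83992939-83992998): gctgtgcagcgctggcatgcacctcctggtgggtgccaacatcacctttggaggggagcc
Acot3 (chr12:84058864-84058923): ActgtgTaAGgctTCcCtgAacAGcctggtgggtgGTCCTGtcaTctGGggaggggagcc
Acot4 (chr12:84043634-84043693): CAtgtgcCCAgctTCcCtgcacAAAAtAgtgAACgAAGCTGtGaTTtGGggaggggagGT

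The files kept a trace of how such reads were counted. The RPKM of Acot7, Acot8 and Acot13 gave whole reads in every mouse (293 to 578, 110 to 389 and 784 to 1505 reads), whereas those of Acot1 to Acot6 gave fractions of reads at every gene length tried. For Acot9 and its copy Acot10 (97.2% identical in coding sequence), 8 mice had fractional reads that summed to a whole number, such as 74.8 and 6.17 reads in FF CD mouse 1, which make 81. For these 2 genes reads were thus divided between copies, and the split between near-identical genes is uncertain. At the coding length, a lower bound for the reads, Acot1 rested on 51.4 to 1232 reads per mouse, Acot2 on 24.8 to 808, Acot3 on 15.6 to 1600 and Acot4 on 143 to 961.

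Acot1, the cytosolic long-chain enzyme of the cluster, was low in FF mice on CD and far higher in those on HFD. Its RPKM was 6.40, 3.46, 1.75 and 3.997 in the 4 FF CD mice, and 26.5, 35.2, 18.4, 34.3 and 21.2 in the 5 FF HFD mice. In LKO mice it was 8.85, 14.0, 7.64 and 14.2 on CD, and 17.7, 12.2, 27.2, 33.5 and 9.67 on HFD. The FF groups did not overlap, whereas LKO HFD mice 2 and 5 fell within the range of LKO CD mice and LKO HFD mice 3 and 4 within that of FF HFD mice. Acot2 is the mitochondrial long-chain enzyme. It was at 1.28, 2.31, 0.778 and 2.10 RPKM in FF CD mice and at 10.1, 22.8, 16.5, 13.8 and 14.7 RPKM in FF HFD mice. In LKO mice it was at 3.17, 8.39, 2.48 and 4.99 RPKM on CD and at 7.21, 6.79, 10.4, 7.35 and 5.39 RPKM on HFD. Of the LKO HFD mice, only mouse 3 reached the lowest FF HFD mouse.

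Acot3, a peroxisomal enzyme that acts on long-chain acyl-CoA, spanned the widest range of the members tested. It was at 3.75, 1.81, 0.513 and 2.48 RPKM in FF CD mice and at 32.4, 47.4, 29.5, 18.5 and 31.5 RPKM in FF HFD mice. In LKO mice it was at 7.11, 24.3, 7.65 and 15.4 RPKM on CD and at 14.6, 9.43, 22.9, 23.9 and 6.48 RPKM on HFD. The LKO groups on the 2 diets overlapped over most of their range. Acot4, the peroxisomal enzyme that also splits succinyl-CoA, was at 8.05, 6.58, 4.83 and 6.04 RPKM in FF CD mice and at 20.6, 25.0, 17.6, 17.98 and 21.4 RPKM in FF HFD mice. In LKO mice it was at 10.6, 16.5, 9.12 and 11.5 RPKM on CD and at 13.3, 11.9, 17.5, 15.2 and 8.995 RPKM on HFD. Every LKO HFD mouse was below every FF HFD mouse, the highest of the former at 17.53 and the lowest of the latter at 17.57 RPKM.

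**Figure D1:**
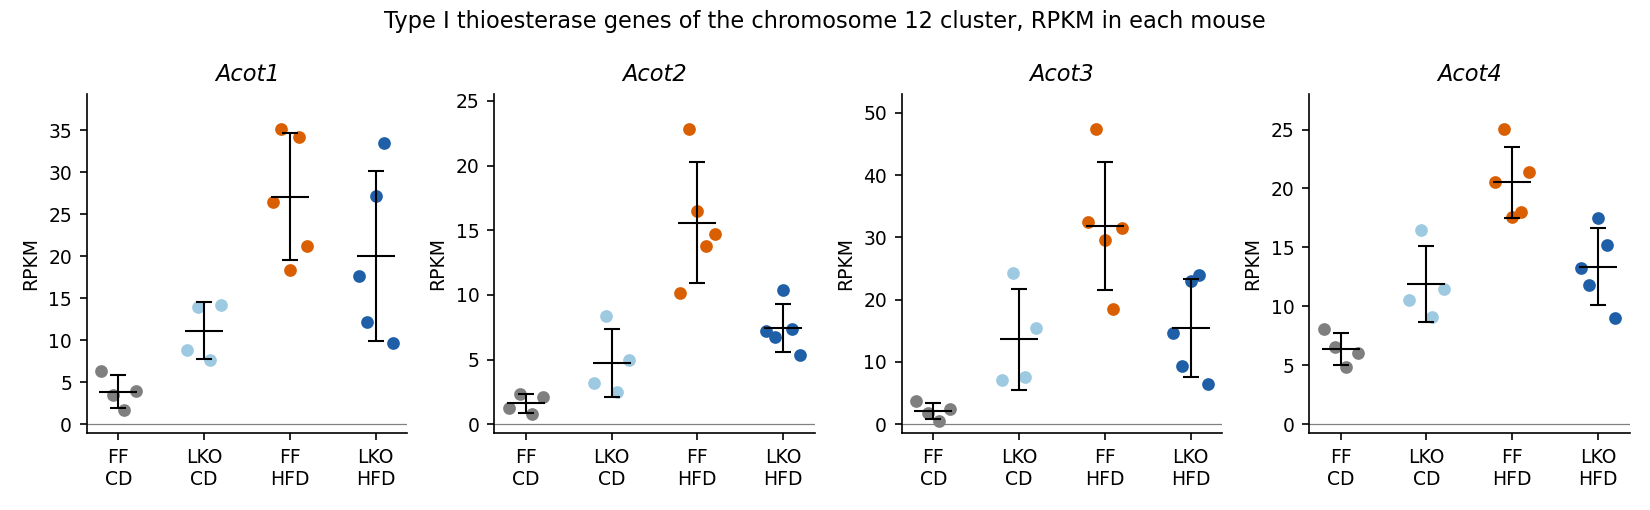
RPKM of Acot1, Acot2, Acot3 and Acot4 in each mouse (points) by group, with the mean (long bar) and SD (whiskers), for 4 mice per group on CD and 5 on HFD. In each gene every FF HFD mouse lies above every FF CD mouse, and the 2 LKO groups overlap.

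Acot1, Acot2, Acot3 and Acot4 rose with HFD in FF mice, and Acot9 rose by a smaller fold. Changes were tested with limma on log2(RPKM + 1), and calls required both an adjusted p under 0.05 (Benjamini-Hochberg over 11090 genes, two-sided) and a change of more than 1.5 times. The log2 fold change on that scale, which understates changes of low genes, was 2.56 for Acot1 (SE 0.33, adjusted p = 5.29e-05, limma), 2.66 for Acot2 (SE 0.26, adjusted p = 4.56e-06), 3.45 for Acot3 (SE 0.40, adjusted p = 2.14e-05) and 1.55 for Acot4 (SE 0.18, adjusted p = 1.62e-05). The mean RPKM of FF HFD mice was 6.95 times that of FF CD mice for Acot1, 9.63 times for Acot2, 14.9 times for Acot3 and 3.22 times for Acot4. In all, 5 of the 9 members tested were called higher and 0 lower, beside 5.11% of all genes called higher. The values of the FF groups did not overlap for 6 of the 9 members, Acot1 to Acot4, Acot9 and Acot13, beside 18.3% of all genes. The median log2 fold change was 0.67 over the 9 members and 0.071 over all genes. This comparison shares the 4 FF CD mice with the one in which Acot3 was known to differ. The value of Acot3 is thus not independent of the choice of the family. Nor are those of Acot1, Acot2 and Acot4, which share sequence with it, or the counts of members.

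In LKO mice no member was called changed by HFD. The log2 fold change was 0.70 for Acot1 (SE 0.33, adjusted p = 0.219, limma), 0.63 for Acot2 (SE 0.26, adjusted p = 0.167), 0.19 for Acot3 (SE 0.40, adjusted p = 0.827) and 0.15 for Acot4 (SE 0.18, adjusted p = 0.65). The 95% confidence interval of the change ran from 0.0079 to 1.39 for Acot1, from 0.076 to 1.19 for Acot2, from -0.66 to 1.03 for Acot3 and from -0.22 to 0.53 for Acot4, so a smaller increase is not excluded for any of them. With limma, 0 of the 9 members were called, beside 1.27% of all genes in either direction, and 4 had an unadjusted p under 0.05, as had 22.3% of all genes. The 141 genes behind the 1.27% became 30, 17 and 81 with mouse 1, 3 or 4 of the LKO CD group left out, and 237 and 20 with mouse 1 or 3 of the LKO HFD group left out. With each of the 18 mice left out in turn, 0 members were called. For none of the 9 did the values of the LKO groups stop overlapping, beside 9.04% of all genes. The median log2 fold change was 0.18 over the members and 0.067 over all genes. The comparison shares the 4 LKO CD mice with the one on which the family was selected, so the value of Acot3 is not independent of that choice. Nor are those of Acot1, Acot2 and Acot4, which share sequence with it, or the counts of members.

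The diet response of the 2 genotypes was compared by the interaction, the log2 fold change by HFD in LKO mice minus that in FF mice. It was -1.87 for Acot1 (SE 0.46, adjusted p = 0.0364, limma), -2.03 for Acot2 (SE 0.37, adjusted p = 0.00508), -3.26 for Acot3 (SE 0.57, adjusted p = 0.00377), -1.40 for Acot4 (SE 0.25, adjusted p = 0.00442) and -0.76 for Acot13 (SE 0.16, adjusted p = 0.0166). These 5 of the 9 members were called lower and 0 higher, beside 1.5% of all genes called lower. All 9 values were below 0, with a median of -0.76, against -0.0072 over all genes. The interaction contains the difference between LKO and FF mice on CD, by which Acot3 was known when the family was chosen. The value of Acot3 is therefore not independent of that choice. Acot1, Acot2 and Acot4 share sequence and the same CD mice with Acot3. With group means removed, their Pearson's r with Acot3 was 0.81, 0.72 and 0.92. Their values, the count of 5 and the 9 values below 0 are thus not independent of that choice either. The call of Acot1 was lost without FF CD mouse 2, 3 or 4, LKO CD mouse 2 or 4, FF HFD mouse 2 or 4 or LKO HFD mouse 2 or 5 (adjusted p 0.0502 to 0.096), and that of Acot13 without LKO CD mouse 2 (adjusted p = 0.0502, limma), when 3 members remained called. Those of Acot2, Acot3 and Acot4 were kept with each of the 18 mice left out. The sum of Acot1 and Acot2 gave an interaction of -2.07 (SE 0.43, adjusted p = 0.0116, limma). That of Acot3 and Acot4 with the low genes Acot5 and Acot6 gave -2.30 (SE 0.41, adjusted p = 0.00387), and both sums were called. In coding sequence Acot3 was 75.3% identical to Acot4 but 85.0% identical to Acot1. The sums therefore do not remove reads shared between Acot3 and Acot1 or Acot2.

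**Figure D2:**
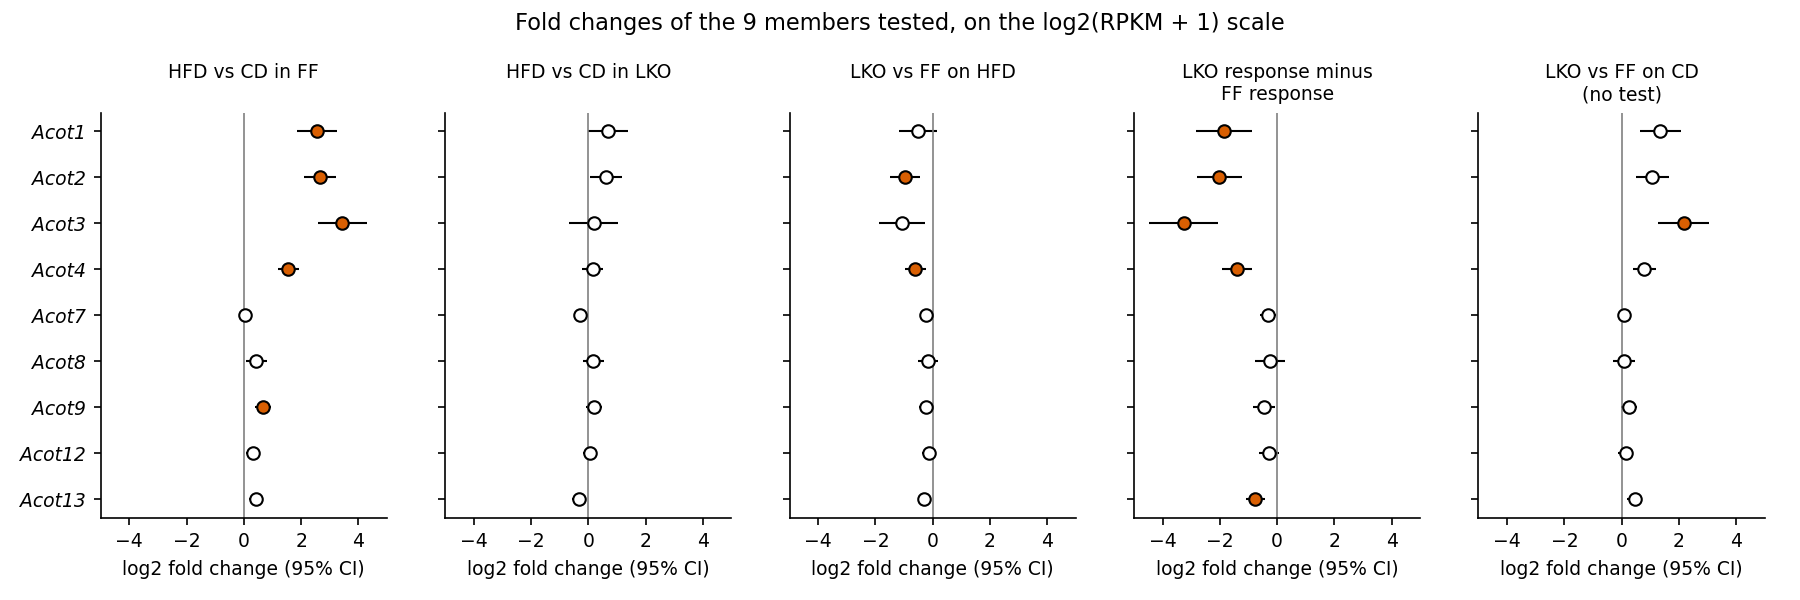
Log2 fold changes on the log2(RPKM + 1) scale of the 9 members tested, with 95% confidence intervals, in each comparison (filled points were called). Acot1 to Acot4 lie at 1.55 to 3.45 for HFD in FF mice and at 0.15 to 0.70 for HFD in LKO mice. The values, intervals and filled point for LKO against FF mice on CD are a description, and nothing is read from them.

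On HFD, Acot2 and Acot4 were lower in LKO than in FF mice. The log2 fold change was -0.96 for Acot2 (SE 0.25, adjusted p = 0.0392, limma) and -0.60 for Acot4 (SE 0.17, adjusted p = 0.04997, limma). Acot3 was at -1.09 (SE 0.38, adjusted p = 0.12, limma) and Acot1 at -0.51 (SE 0.31, adjusted p = 0.379, limma), neither called. The 2 calls among 9 members stand beside 1.17% of all genes called lower, and only Acot4 had groups without overlap, beside 4.67% of all genes. All 9 members had values below 0, with a median of -0.30, against 0.030 over all genes. Acot1 to Acot4 share sequence and varied together within groups (r = 0.52 to 0.92), so the 9 values are not independent of each other. The call of Acot4 sat at the threshold and was lost in 19 of 27 alternative fits, 14 of which leave out a single mouse (adjusted p 0.0501 to 0.129). Of the 18 mice left out in turn, it was kept only without FF CD mouse 3, LKO CD mouse 2 or 3 or LKO HFD mouse 3. The call of Acot2 was lost without FF HFD mouse 2, 3, 4 or 5 or LKO HFD mouse 2, 4 or 5 (adjusted p 0.065 to 0.109), and neither member was called without any one of these 7 mice. Summed with Acot1, Acot2 gave a log2 fold change of -0.68 (SE 0.28, adjusted p = 0.196, limma), and the sum of Acot3 to Acot6 gave -0.88 (SE 0.27, adjusted p = 0.0743, limma), so neither sum was called.

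On CD, where Acot3 was known to differ, the mean RPKM of LKO mice was 6.37 times that of FF mice for Acot3, 2.94 times for Acot2, 2.86 times for Acot1, 1.87 times for Acot4 and 1.39 times for Acot13. The values of these 5 members did not overlap between the genotypes, beside 5.07% of all genes. The log2 fold changes were 2.17 for Acot3, 1.35 for Acot1, 1.07 for Acot2, 0.80 for Acot4 and 0.46 for Acot13, and 0.24 or less for the other 4. Acot3, the gene on which the family was selected, was the 1 member past the limits of a call, where 0.225% of all genes were. Because the family was selected in this comparison, nothing is read from this count or from the groups without overlap. LKO CD mouse 2 was the highest of its group for Acot2, Acot3, Acot4 and Acot13.

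Acot13, a type II enzyme of the mitochondrial surface that binds phosphatidylcholine transfer protein, was the most abundant member in all 4 groups. Its RPKM was 44.9, 49.5, 48.8 and 55.5 in FF CD mice and 62.9, 77.5, 60.7 and 75.1 in LKO CD mice. In the HFD groups it was 59.4, 79.4, 73.4, 57.0 and 67.3 in FF mice and 61.7, 57.5, 46.2, 49.0 and 58.4 in LKO mice. HFD mice were thus above CD mice in FF animals, without overlap, and mostly below them in LKO animals. The log2 fold change by HFD was 0.42 in FF mice (SE 0.12, adjusted p = 0.0151, limma), short of the fold needed for a call, and -0.33 in LKO mice (SE 0.12, adjusted p = 0.107, limma). On HFD it was -0.30 in LKO against FF mice (SE 0.11, adjusted p = 0.144, limma). Because Acot13 shares no stretch of 50 bases with another family gene, its values do not depend on how reads were split within the family.

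Acot9, a mitochondrial type II enzyme, had a lower level, at 1.29, 2.14, 1.23 and 0.937 RPKM in FF CD mice and at 2.20, 3.71, 2.51, 2.77 and 2.74 RPKM in FF HFD mice. It was at 1.84, 1.98, 1.66 and 1.70 RPKM in LKO CD mice and at 1.98, 2.51, 2.67, 2.22 and 1.78 RPKM in LKO HFD mice. Acot9 rose with HFD in FF mice, with a log2 fold change of 0.67 (SE 0.13, adjusted p = 0.00133, limma) and a mean RPKM 1.99 times as high. Without FF CD mouse 4 the value was 0.57, under the fold needed for a call. In LKO mice it was 0.20 (SE 0.13, adjusted p = 0.362, limma), and the interaction of -0.47 was not called (SE 0.18, adjusted p = 0.188, limma), though it was without FF CD mouse 2 (-0.60, adjusted p = 0.0432, limma). Summed with Acot10, its value in FF mice was the same, 0.67 (SE 0.12, adjusted p = 0.00109, limma).

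The 3 remaining type II members were not called in any comparison. Acot12, the cytosolic enzyme that splits acetyl-CoA, was the second most abundant member, at 33.5 ± 5.63 RPKM (SD, n = 4) in FF CD, 36.7 ± 3.53 (n = 4) in LKO CD, 42.0 ± 2.59 (n = 5) in FF HFD and 38.2 ± 5.61 (n = 5) in LKO HFD mice. Its log2 fold change by HFD in FF mice was 0.33 (95% confidence interval 0.081 to 0.58, adjusted p = 0.0562, limma) and in LKO mice 0.050 (-0.20 to 0.30). Acot7, the cytosolic enzyme best known from the brain, was at 7.62 ± 0.62 RPKM in FF CD, 8.23 ± 0.889 in LKO CD, 7.89 ± 0.973 in FF HFD and 6.58 ± 0.651 in LKO HFD mice. Its log2 fold change by HFD was 0.039 in FF mice (-0.16 to 0.24) and -0.28 in LKO mice (-0.48 to -0.083, adjusted p = 0.0956, limma). The small value in FF mice turned to -0.045 with quantile normalization, -0.052 with centring on the median and -0.010 without FF CD mouse 3. The sum of 3 neuronal markers was 1.03 to 2.69 RPKM over all mice. Acot8, the peroxisomal enzyme of broad substrate range, was at 4.97 ± 1.20 RPKM in FF CD, 5.34 ± 1.29 in LKO CD, 7.10 ± 1.76 in FF HFD and 6.09 ± 0.864 in LKO HFD mice. Its log2 fold change by HFD was 0.43 in FF mice (0.060 to 0.80, adjusted p = 0.0919, limma) and 0.18 in LKO mice (-0.19 to 0.55).

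Acot5, a further peroxisomal type I gene, was at the edge of detection, and its mean RPKM was under the 0.5 needed to enter the limma fit. It was listed at 0 in 10 of 18 mice, among them all 4 FF CD mice, and at 0.057, 0.079, 0.107, 0 and 0.133 RPKM in the 5 FF HFD mice. For a gene of its coding length, 3 reads make 0.0924 RPKM at the median depth, so only FF HFD mice 3 and 5 were above that level. The exact permutation test of HFD against CD in FF mice gave p = 0.0476, and 0.114 after Benjamini-Hochberg adjustment over 12 tests of family genes below the filter.

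**Figure D3:**
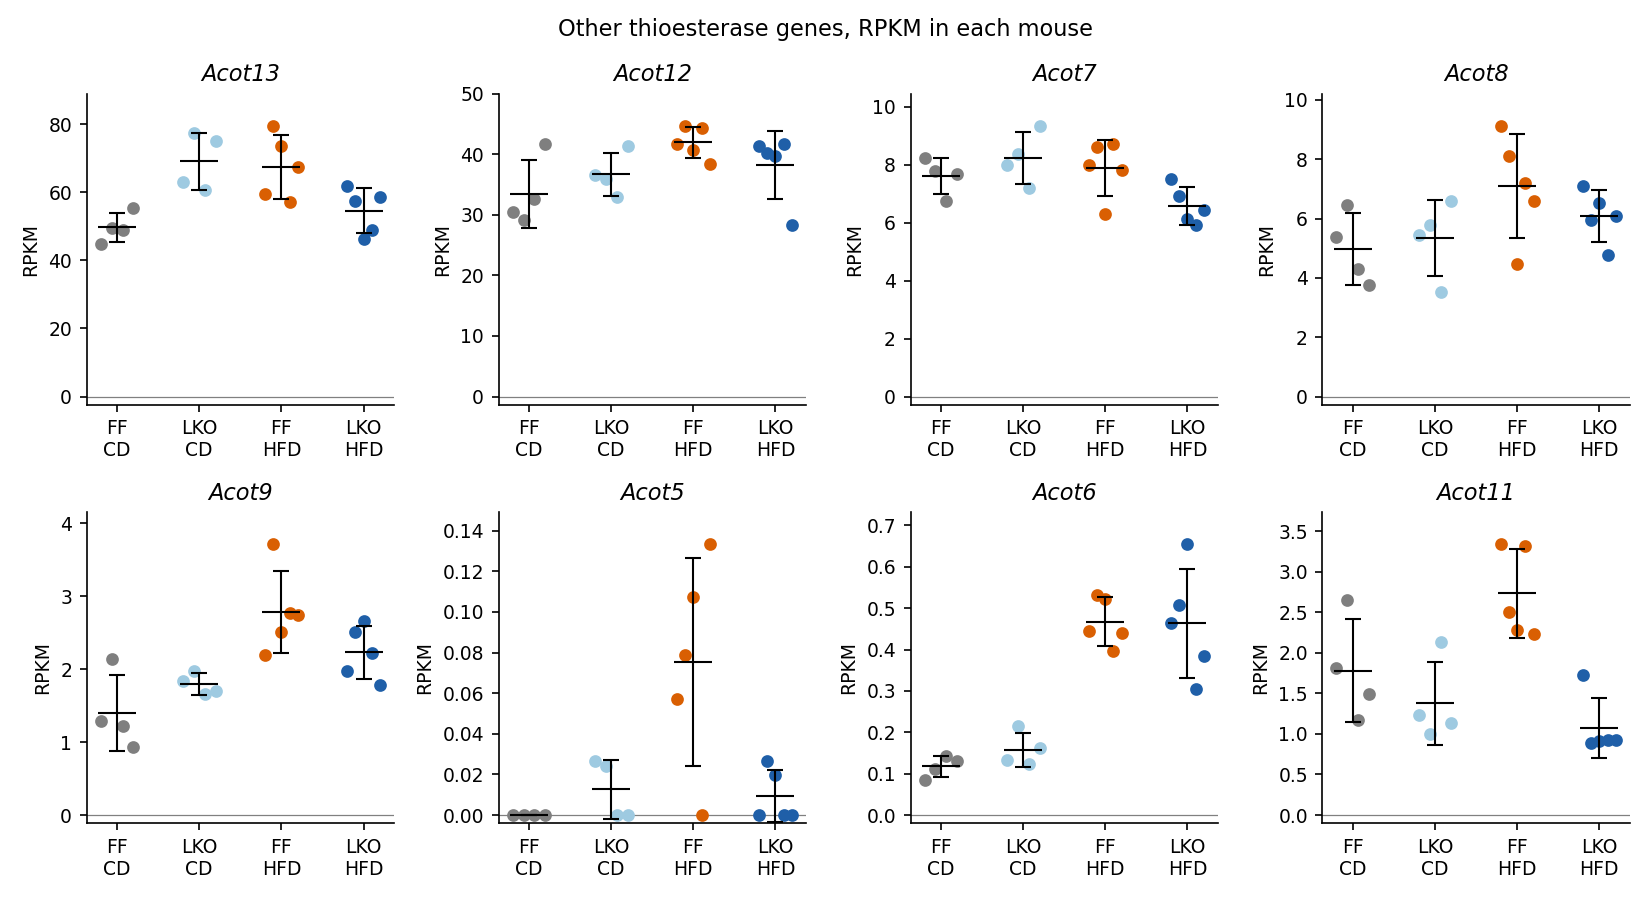
RPKM of Acot13, Acot12, Acot7, Acot8, Acot9 and Acot5 and of Acot6 and Acot11, which were outside the member list, in each mouse (points) by group, with the mean (long bar) and SD (whiskers). The vertical scale differs between panels, from about 0.1 RPKM for Acot5 to over 70 for Acot13.

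Of the thioesterase genes outside the list, Acot11 and Acot6 departed from the others. Acot11, a type II enzyme with a lipid-binding START domain, was at 3.34, 2.50, 2.28, 3.32 and 2.24 RPKM in FF HFD mice and at 1.73, 0.884, 0.907, 0.923 and 0.927 RPKM in LKO HFD mice, without overlap. It fell in LKO against FF mice on HFD, with a log2 fold change of -0.85 (SE 0.15, adjusted p = 0.00367, limma), and this call was kept in all 27 alternative fits. On CD it was at 1.78 ± 0.636 RPKM in FF and 1.38 ± 0.513 RPKM in LKO mice (SD, n = 4 each), and HFD changed it by 0.44 in FF mice (adjusted p = 0.0587, limma) and -0.19 in LKO mice (adjusted p = 0.512, limma). Acot6, the last gene of the chromosome 12 cluster, was also below that level, on 3.46 to 27.8 reads per mouse at its coding length. It was at 0.0857 to 0.144 RPKM in FF CD and 0.396 to 0.533 RPKM in FF HFD mice, and at 0.123 to 0.214 RPKM in LKO CD and 0.305 to 0.654 RPKM in LKO HFD mice. Its diet groups did not overlap in either genotype (exact permutation test, p = 0.00794 in FF mice, the smallest this test allows, and p = 0.0159 in LKO mice, both 0.0952 after adjustment over the same 12 tests). Baat, which joins bile acids to amino acids and is related to the type I enzymes, stayed at 72.0 to 113 RPKM, and Them4, a mitochondrial type II relative, at 7.68 to 14.4 RPKM, with no call in any comparison. Acot10 and Them5 did not exceed 0.208 and 0.128 RPKM.

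The order of the family by RPKM shifted with diet and genotype. Acot13 was first and Acot12 second in all 4 groups. In FF CD mice they were followed by Acot7, Acot4, Acot8, Acot1, Acot3, Acot11, Acot2 and Acot9, each of which overlapped with the next. In FF HFD mice Acot3, Acot1, Acot4 and Acot2 came before Acot7, and Acot2 did not overlap with Acot7. In LKO HFD mice the third to sixth places were held by Acot1, Acot3, Acot4 and Acot2, and Acot2 overlapped with Acot7. The RPKM of Acot1 to Acot4 summed to 14.0 ± 4.76 (SD, n = 4) in FF CD, 41.5 ± 16.8 (n = 4) in LKO CD, 95.1 ± 20.03 (n = 5) in FF HFD and 56.3 ± 22.2 (n = 5) in LKO HFD mice. This was 12.3% ± 4.03, 24.5% ± 5.90, 41.9% ± 3.09 and 33.1% ± 9.55 of the sum over all 13 Acot genes. The share was 7.64% to 17.4% in FF CD mice and 38.6% to 46.9% in FF HFD mice, whereas LKO HFD mice spread from 23.0% to 43.3%.

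**Figure D4:**
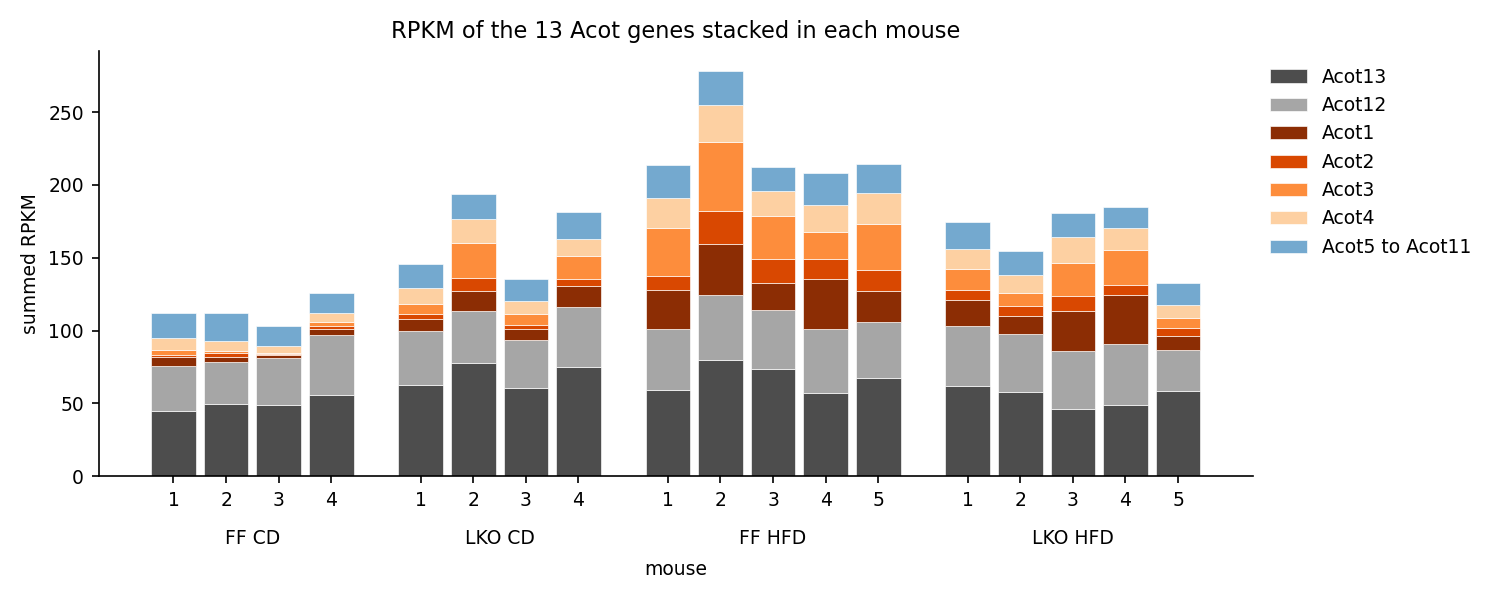
RPKM of the Acot genes stacked for each of the 18 mice, with Acot5 to Acot11 shown as 1 block. The height is the sum over 13 genes, with a mean of 113 in FF CD, 164 in LKO CD, 226 in FF HFD and 166 in LKO HFD mice, and the orange blocks are Acot1 to Acot4.

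Acot1 to Acot4 also varied together between mice of the same group. After the mean of each group was removed, Pearson's r over the 18 mice was 0.52 to 0.92 for the 6 pairs of these genes, with 0.92 for Acot3 and Acot4 and 0.52 for Acot1 and Acot2. The genes of the cluster share sequence, and each point is 1 library, so the values are a description. Acot3 relative to Acot1 was 0.294 to 0.62 in FF CD mice, 0.803 to 1.74 in LKO CD mice, 0.541 to 1.61 in FF HFD mice and 0.67 to 0.844 in LKO HFD mice. Among all genes outside the family, those with the highest Pearson's r to each called member over the 18 mice, with the differences between groups left in, were, for Acot2, Pex11a (r = 0.97), a peroxisome proliferation factor, Gpat3 (r = 0.96), an enzyme of triglyceride synthesis, and Dram2 (r = 0.96). For Acot1 they included Slc4a4 (r = 0.95), a bicarbonate transporter, and Hsdl2 (r = 0.95). Acot3 was followed by Slc4a4 (r = 0.96), Acadl (r = 0.95), a long-chain acyl-CoA dehydrogenase, and Cyp2c38 (r = 0.95), and Acot4 by Tlcd4 (r = 0.96), Slc4a4 (r = 0.96) and Dram2 (r = 0.95). The nearest genes to Acot9 (Adss, Rrm1 and Tmem64, r = 0.89 to 0.91) and to Acot13 (Apoe, Mpc1, a subunit of the mitochondrial pyruvate carrier, and Slc16a7, r = 0.86 to 0.87) had lower values of r. With the group means removed, r was lower for the neighbours named (0.75 to 0.85 for those of Acot2, 0.73 to 0.83 for those of Acot3 and 0.75 to 0.84 for those of Acot13).

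Genes of acyl-CoA metabolism around the family were counted in lists. Over all genes, HFD called 5.11% higher in FF mice and 1.27% in either direction in LKO mice. At the latter share, lists of these sizes would hold few or no calls, so a 0 in LKO mice says little about a list. Of 30 PPARA targets, 21 were called higher by HFD in FF mice (5.11% of all genes were) and 0 lower, with a median log2 fold change of 0.88, and 0 were called in LKO mice, with a median of 0.22. The interaction was called lower for 11 of the 30 (1.5% of all genes), and it contains the difference on CD, where Cyp4a10 and Cyp4a14, fatty acid hydroxylases, were called higher in LKO mice. On HFD, 4 were lower in LKO than in FF mice (1.17% of all genes). These were Aldh3a2 and, with larger values, Cidec, a lipid droplet protein (log2 fold change -2.18, adjusted p = 0.00503, limma), Cd36, a fatty acid transporter (-1.88, adjusted p = 0.00504, limma), and Pex11a (-0.86, adjusted p = 0.00747, limma). Of 24 genes of peroxisomal acyl-CoA metabolism, 9 were called higher and 1 lower by HFD in FF mice and 0 in LKO mice. The gene that fell was Nudt7, a peroxisomal hydrolase of coenzyme A (-1.37, adjusted p = 5.29e-05, limma), and it was higher in LKO than in FF mice on HFD (0.84, adjusted p = 0.00776, limma). For the 24 peroxisomal genes the interaction was called lower in 7 (1.5% of all genes) and higher in 1. Of 17 genes of mitochondrial beta-oxidation, 9 were called higher in FF mice and 0 in LKO mice, with Hadh, an L-3-hydroxyacyl-CoA dehydrogenase, at 0.85 (adjusted p = 5.75e-05, limma) and -0.038 (adjusted p = 0.871, limma). However, the interaction was called lower for only 2 of the 17, Hadh among them, and 0 were called in LKO against FF mice on HFD. Slc25a20, the carnitine-acylcarnitine carrier, was at 0.78 and 0.16 in FF and LKO mice, and Decr1, a dienoyl-CoA reductase, at 0.72 and 0.15. Neither had a called interaction (adjusted p = 0.0582 and 0.126, limma).

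Of the acyl-CoA synthetases, which catalyse the reverse step, 15 of 20 were tested. HFD called 3 of them higher in FF mice (Acsl1, Acss3 and Acsf3), beside 5.11% of all genes. Only Acss3 had a called interaction, which was lower (1.5% of all genes). Acss3, a mitochondrial synthetase of short-chain acyl-CoA, was at 9.01 ± 1.20 RPKM in FF HFD and 3.34 ± 0.965 RPKM in LKO HFD mice (SD, n = 5 each, log2 fold change -1.22, adjusted p = 0.000983, limma). Acsl4, which prefers arachidonic acid, was higher in LKO mice on HFD (0.61, adjusted p = 0.00811, limma), and Acsl3 was at 0.55 without a call (adjusted p = 0.0661, limma). In coenzyme A synthesis and breakdown, 4 of 14 genes were called higher in FF mice (5.11% of all genes were). Among them Vnn1, the pantetheinase, was at 2.80 (adjusted p = 7.19e-06, limma) in FF and 0.59 (adjusted p = 0.24, limma) in LKO mice. The others were Pank1, Slc25a42 and Vnn3, a relative of Vnn1 at 0.76 in FF (adjusted p = 0.000632, limma) and -0.37 in LKO mice (adjusted p = 0.107, limma), while Dcakd was at 0.089 and 0.29 without a call. Of the 14, Vnn1 and Vnn3 alone had a called interaction, lower in both. Among 14 tested genes of acyl-CoA binding and esterification, 1 was called higher in FF mice (5.11% of all genes were) and 1 lower. The former was Mogat1, an acyltransferase of monoacylglycerol (2.22, adjusted p = 8.61e-06, limma), and the latter Lpin1, a phosphatidate phosphatase (-0.88, adjusted p = 0.0377, limma). In LKO mice Lpin1 fell as well (-1.24, adjusted p = 0.0285, limma), with Gpam, and Agpat2 was not called in either genotype. Mogat1 alone of the 14 had a called interaction, which was lower. The median log2 fold change by HFD in FF mice was 0.34 for the synthetases, 0.49 for the peroxisomal genes, 0.60 for beta-oxidation, 0.14 for coenzyme A and 0.090 for binding and esterification, beside 0.071 over all genes.

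**Figure D5:**
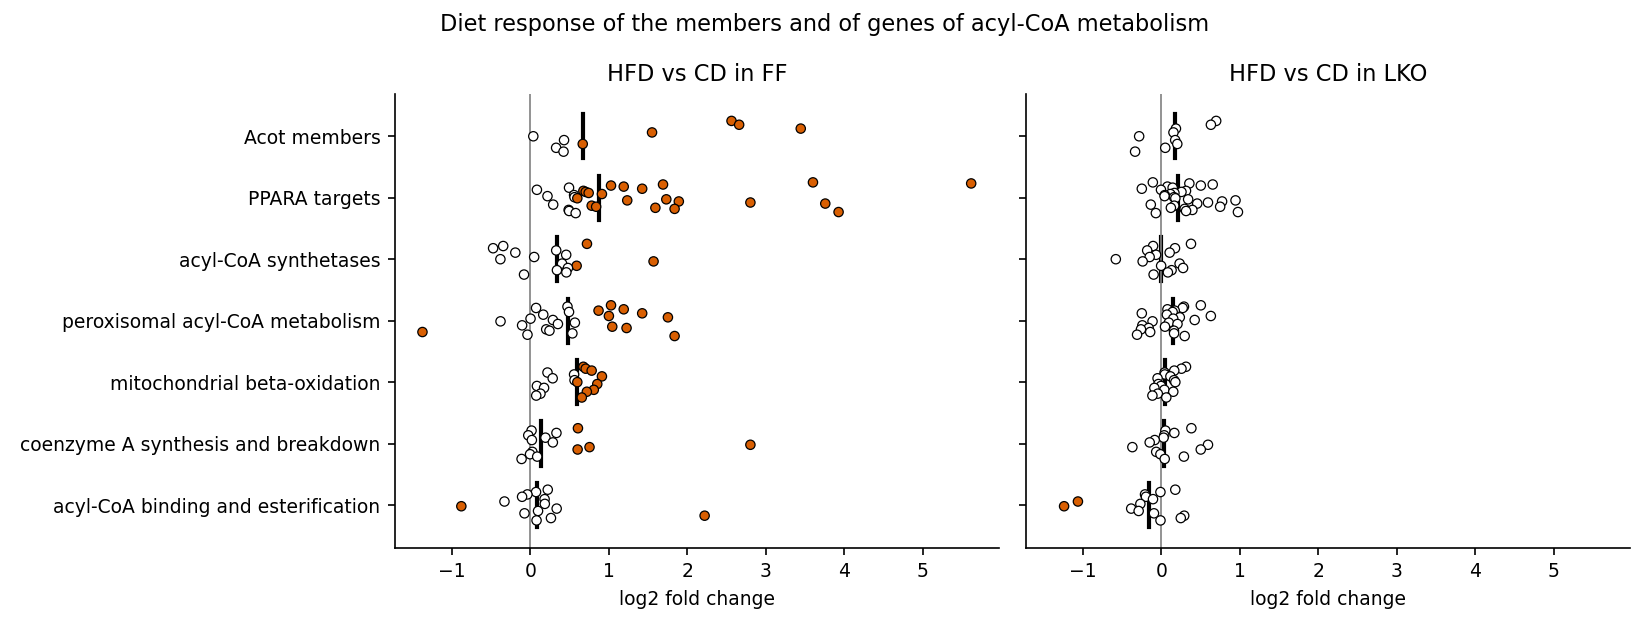
Log2 fold change by HFD in FF mice (left) and LKO mice (right) on the log2(RPKM + 1) scale for the 9 members tested and the genes of 6 lists (points, filled where called), with the median of each list as a bar. The median of the PPARA targets is 0.88 in FF and 0.22 in LKO mice, and that of the members 0.67 and 0.18.

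PPARA with its partner RXR binds a direct repeat of the half-site AGGTCA with 1 base between the copies, and this element was searched on both strands in 300 bases around each start (250 before and 50 after, RefSeq, GRCm38.p6). Windows were given for 11 of the 13 Acot genes and 9 of the 10 members. No more than 1 mismatch over both half-sites was found in 0.554% of 32851 windows, and in the family in Acot12 alone. Acot4 had 2 mismatches, as did or bettered 3.86% of all windows, and Acot1, Acot2 and Acot3 had 3 or more. The 2 closest matches are shown on the plus strand with the element in capitals, where it reads in the opposite direction. They lie 110 to 98 bases before the start of Acot12 and 13 to 1 bases before that of Acot4.
Acot12 (chr13:91741391-91741443): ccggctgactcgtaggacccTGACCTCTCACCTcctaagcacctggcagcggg
Acot4 (chr12:84038346-84038378): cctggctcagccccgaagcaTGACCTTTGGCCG
The gene with the closest match, Acot12, was not called in any comparison. A match describes letters in this window only, and elements farther from the start were not searched.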

How the data were processed

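Liver RNA of 18 mice was sequenced. Per the submitters' processing notes, HISAT2 (2.0.4), Partek and the mm10 build were used, and the authors deposited RPKM per gene and mouse. The gene annotation, the strandedness and how a read with several matching genes was counted are not given in the sources used here, and the labels name both a small RNA library protocol and a standard one.

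RPKM was used as deposited. Log2(RPKM + 1) of the 11090 genes that averaged 0.5 RPKM or more was modelled in limma (3.58.1, R 4.3.3, lmFit and contrasts.fit, then moderated by eBayes with trend) with 1 coefficient per group, two-sided, with Benjamini-Hochberg adjustment. Genes below that level were compared by exact permutation of mice. Members, gene lists and tests were chosen with earlier results of these data known. The labels give no batch or date, and p-values judge differences between groups against the variation between these mice.

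Genes named were the members, their relatives (Acot6, Acot10, Acot11, Them4, Them5, Baat), Ppp6r3, from each list the genes that differed most between LKO and FF mice on HFD (no more than 3, averaging 1 RPKM or more), and the 3 genes most alike in expression to each called member. Aldh3a2, Acsl1, Acsf3, Pank1, Slc25a42, Gpam, Cyp4a10, Cyp4a14 and the marker genes called were named after their values were seen, as members of small counts. Some genes that this rule names are not reported here.

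Depth came from steps between low RPKM values (73.6% of 1500 genes gave whole reads in all mice, within 0.01 reads), and it limits genes such as Acot5 to a few reads. Positions and coding sequences are those of GENCODE M21, and promoters those of RefSeq. In each of the 153 pairs of mice at least 66.5% of genes differed in value. Alternative fits used a pseudocount of 0.1, all genes, only genes averaging 1 RPKM or more, an equal sum per mouse, quantile normalization, centring on the median, the groups compared alone, no moderation, the adjusted p alone, the replicate number as a block, and 17 of the 18 mice with each left out in turn. In a further alternative Acot1 with Acot2, Acot3 to Acot6, and Acot9 with Acot10 were summed. Python 3.11.15 with numpy 2.4.6, pandas 2.3.3, scipy 1.17.1, Biopython 1.88 and matplotlib 3.10.9 handled tables, sequences and figures.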

Additional observations from a re-analysis of the deposited data

Results flagged for a closer look

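The diet response differed between the genotypes for 5 members, by the limma test of the difference itself (response of LKO minus response of FF mice, log2 scale). The values were -1.87 for Acot1, -2.03 for Acot2, -3.26 for Acot3, -1.40 for Acot4 and -0.76 for Acot13, with adjusted p of 0.0364, 0.00508, 0.00377, 0.00442 and 0.0166 (limma). Acot1 to Acot4 rose in FF mice and had smaller positive values in LKO mice, whereas Acot13 had a positive value in FF and a negative value in LKO mice. The difference between genotypes on CD is part of each of these values, and the family was selected on that difference in Acot3.

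Among LKO HFD mice a single mouse stood apart from the other 4 for Acot11 and another single mouse for Acot12. LKO HFD mouse 1 had an RPKM of 1.73 for Acot11, with the next mouse at 0.927, and LKO HFD mouse 5 had 28.3 for Acot12, with the next mouse at 39.7. Among the 51 sets of values examined, each 1 gene in 1 group, chance would flag about 1 in 20, or 2.55.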

How the results depend on the processing

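The increase of Acot1 to Acot4 with HFD in FF mice was called in all 27 alternative fits, with log2 fold changes of 2.32 to 2.86, 2.49 to 3.25, 3.13 to 4.05 and 1.44 to 1.68. The interaction of Acot2, Acot3 and Acot4 was called in all 26, at -2.50 to -1.76, -3.85 to -2.94 and -1.52 to -1.24. These fits reuse the CD mice of the comparison on which the family was selected. That the calls were kept is therefore not independent of the choice of the family. The 2 members called lower in LKO mice on HFD were less stable. With a pseudocount of 0.1, with no filter or with no moderation 0 were called, and with only the groups compared 1 was called. With 1 mouse left out there were 0 to 2 called members in that comparison, 3 to 5 in the interaction and 0 to 1 in LKO against FF mice on CD. In the last the single call is that of Acot3, on which the family was selected, and the count is 0 with no filter, only the groups compared or no moderation, from which nothing is read. The interaction of Acot1 was not called with no filter (adjusted p = 0.0926, limma) or no moderation (adjusted p = 0.0893), that of Acot13 not with quantile normalization (adjusted p = 0.0501), and Acot9 in FF mice fell under the fold needed with quantile normalization (0.57) and median centring (0.58). The causes were not tested.

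Small values changed sign. The change of Acot3 by HFD in LKO mice turned to -0.044 when mouse 1 of the LKO CD group was left out, -0.012 when mouse 3 was, and -0.000285 when mouse 4 of the LKO HFD group was, in a range up to 0.50 over the mice left out. That of Acot7 in FF mice was -0.045 with quantile normalization, -0.052 with median centring and -0.010 without FF CD mouse 3, up to 0.11 over the mice left out, and that of Acot12 in LKO mice was -0.046 with median centring. Of 1090 values for single genes under alternatives, LKO against FF mice on CD not counted, 1035 kept their direction and call.

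With the replicate block, 1 member was called lower in LKO mice on HFD (Acot2), with Acot4 at an adjusted p of 0.0595 (limma), 5 were called in the interaction, 5 higher and 0 changed by HFD in FF and LKO mice, and 0 on CD. Mice of equal number were not treated as pairs. The correlation of their deviations from the group means was -0.17 to 0.33 over 25 pairs (median 0.054), and 10 exceeded 0.1, against 26 of 96 pairs of different number (median -0.012).

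Over all genes, HFD against CD in FF mice gave 732 calls (567 higher, 165 lower), and 1254 with a pseudocount of 0.1, with 410 higher and 236 lower under median centring and 423 and 224 under quantile normalization. In LKO mice there were 141 calls (107 higher, 34 lower), against 40 with only the groups compared, 47 with no filter, 53 with no moderation, 88 with median centring (40 higher, 48 lower), 87 with quantile normalization (48 and 39) and 272 with a pseudocount of 0.1. The interaction gave 271 calls, against 169 with no filter, 167 with no moderation and 411 with an equal sum per mouse. LKO against FF mice gave 230 calls on HFD, against 152 with no filter and 145 with no moderation, and 25 on CD, against 12 with no filter and 6 with no moderation. With 1 mouse left out the counts over all genes were 605 to 802 by HFD in FF mice, 17 (without LKO CD mouse 3) to 237 (without LKO HFD mouse 1) in LKO mice, 156 (without FF CD mouse 3) to 392 (without LKO HFD mouse 1) for the interaction, 132 (without FF HFD mouse 2) to 318 (without LKO HFD mouse 1) on HFD and 11 (without FF CD mouse 2) to 45 (without LKO CD mouse 3) on CD. Others that moved them by over 1.5 times were LKO HFD mouse 3 on HFD (144), LKO CD mice 2 and 4 and FF HFD mouse 2 for the interaction (157, 162 and 177), and LKO CD mice 2 and 4 and FF CD mouse 3 on CD (13, 14 and 15).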

Other observations

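Acot6 was below the level needed for the limma fit, and its RPKM in LKO HFD mice (0.463 ± 0.132, SD, n = 5) was close to that in FF HFD mice (0.467 ± 0.0587, n = 5). In the same cluster, Acot2 and Acot4 were called lower in LKO mice on HFD, and Acot1 and Acot3 were not called. Both calls were lost when certain single mice were left out. The difference between the genotypes on HFD gave p = 0.889 for Acot6 (exact permutation test, two-sided), and whether its diet response differed from that of the other cluster genes was not tested. The ratio of Acot2 to Acot1, which share more than any other pair of the cluster in coding sequence, was 0.46 ± 0.196 (n = 4) in FF CD, 0.409 ± 0.128 (n = 4) in LKO CD, 0.604 ± 0.216 (n = 5) in FF HFD and 0.425 ± 0.141 (n = 5) in LKO HFD mice. LKO HFD mouse 5 had the lowest Acot1, Acot2, Acot3, Acot4, Acot9 and Acot12 of its group and LKO HFD mouse 3 the lowest Acot13, so low levels were not shared by all members within a mouse.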
